A study of Rattus norvegicus with 13 samples.

Results

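Focal adhesions are the plaques through which a cell holds on to its matrix. The 10 plaque genes described here are the tensins Tns1 and Tns3, the actin linkers Vcl (vinculin), Tln1 (talin 1), Actn1 and Actn4 (alpha-actinins), the scaffold genes Pxn (paxillin), Zyx (zyxin) and Ilk (integrin-linked kinase), and Pgm5 (aciculin). They were taken by name, as 10 of the 21397 genes to which the authors' peak annotation gave at least 1 peak. Members were all peaks carrying these names, which came to 341 of 154284 peaks in 4 lists. They also included the 19 of 5183 sites in the authors' deposited table of H3K4me2 differences that overlapped such a peak.

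The study mapped H3K4me2 by CUT&Tag in 3 cultured rat aortic smooth muscle cell lines, a control line labelled WT, a Myocd-LSD1 line and a Myocd-LSD1NF line (n = 3 samples each). FLAG was mapped in cells carrying a FLAG-tagged Myocd-LSD1 (n = 4 samples). All lines grew in the same serum medium, and the control line served without a fusion. The labels do not spell out NF, name no promoter for the transgenes, and do not say whether a line was 1 clone or whether a group's samples were grown separately. A single peak list stood for each group, so a difference between lists has no replicate error, and depth was unknown. The alignment named in each H3K4me2 list ends in the number 1, and whether a list rests on 1 sample or on pooled samples is not stated. The only replicated comparison was the authors' own, between Myocd-LSD1 and Myocd-LSD1NF, and control did not enter it.

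Talin binds the tails of integrins and, with vinculin, ties them to actin, which alpha-actinins cross-link into stress fibres. Tensins join integrins to actin in the elongated adhesions that assemble fibronectin, and paxillin, zyxin and integrin-linked kinase recruit signalling and repair proteins to the plaque. In vascular smooth muscle this machinery passes contractile force to the vessel wall, and vinculin and other plaque genes are known targets of serum response factor and its coactivators. H3K4me2 is a histone mark of active and poised promoters and enhancers. LSD1 removes it, and myocardin (Myocd) is the coactivator of serum response factor in smooth muscle.

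The labelled cell type was checked against marker genes. A promoter peak, meaning one no farther than 3 kb from a transcription start site (TSS), was present at all 8 smooth muscle markers in control and Myocd-LSD1NF and at 7 in Myocd-LSD1, where Myh11 had none. It was present at 0 or 1 of 6 endothelial markers, 1 or 2 of 6 leukocyte markers and 1 of 4 fibroblast markers. Of 5 skeletal and cardiac muscle markers, 3 had one in control and 0 in either fusion line.

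The plaque genes carried many H3K4me2 peaks, mostly in introns. They held 101 of 42672 peaks in control, 87 of 42405 in Myocd-LSD1 and 105 of 42727 in Myocd-LSD1NF, and 48 of 26480 FLAG peaks. Among the 50% of each list with the strongest q-values the order of control and Myocd-LSD1 turned, with 46, 49 and 57 H3K4me2 peaks. The median plaque gene had 10 H3K4me2 peaks in control, 7.5 in Myocd-LSD1 cells and 8.5 in Myocd-LSD1NF cells, while the median of all genes with a peak was 2 in each list. Intronic peaks made up 65.3%, 60.9% and 69.5% of the plaque genes' peaks in these lists, beside 25.6%, 25.9% and 27.3% of all peaks. Promoter peaks made up 23.8%, 27.6% and 20.0%, beside 45.8%, 44.6% and 42.5%. The median fold enrichment over background, a value the authors' peak caller gave, was 3.86, 4.62 and 4.41 at the plaque genes. Over all peaks it was 6.29, 6.78 and 6.82. Where fold enrichments of several lists stand side by side below, their differences were not tested, since each group has a single list.

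The tensins held the most peaks. Tns1 (rn6 chr9:81194106-81400987, minus strand) had 27 H3K4me2 peaks in control, 21 in Myocd-LSD1 cells and 29 in Myocd-LSD1NF cells, and only 2 genes had more in control, 8 in Myocd-LSD1 cells and 2 in Myocd-LSD1NF cells. Tns3 (chr14:88673922-88907874, minus strand) had 20, 21 and 22. The tensins are also long genes, spanning 207 and 234 kb. Actn1 (chr6:103376557-103470497, minus) had 12, 8 and 14 peaks in the same order of lists, and Pxn (chr12:46797953-46845079, minus) had 12, 8 and 11. Actn4 (chr1:87078012-87147308, minus) had 11, 11 and 12. Vcl (chr15:3455211-3544738, minus) had 9, 7 and 6, so that its count was lower in both fusion lists. The length under its peaks was instead greater in both, with 3759 bp in control, 4373 bp in Myocd-LSD1 cells and 4025 bp in Myocd-LSD1NF cells. The compact genes Zyx (chr4:71740188-71749386, plus), Ilk (chr1:170578941-170585192, plus) and Tln1 (chr5:59033635-59063592, minus) had 2 to 5 peaks in each list, and so did Pgm5 (chr1:242582591-242765837, minus), which spans 183 kb.

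**Figure D1:**
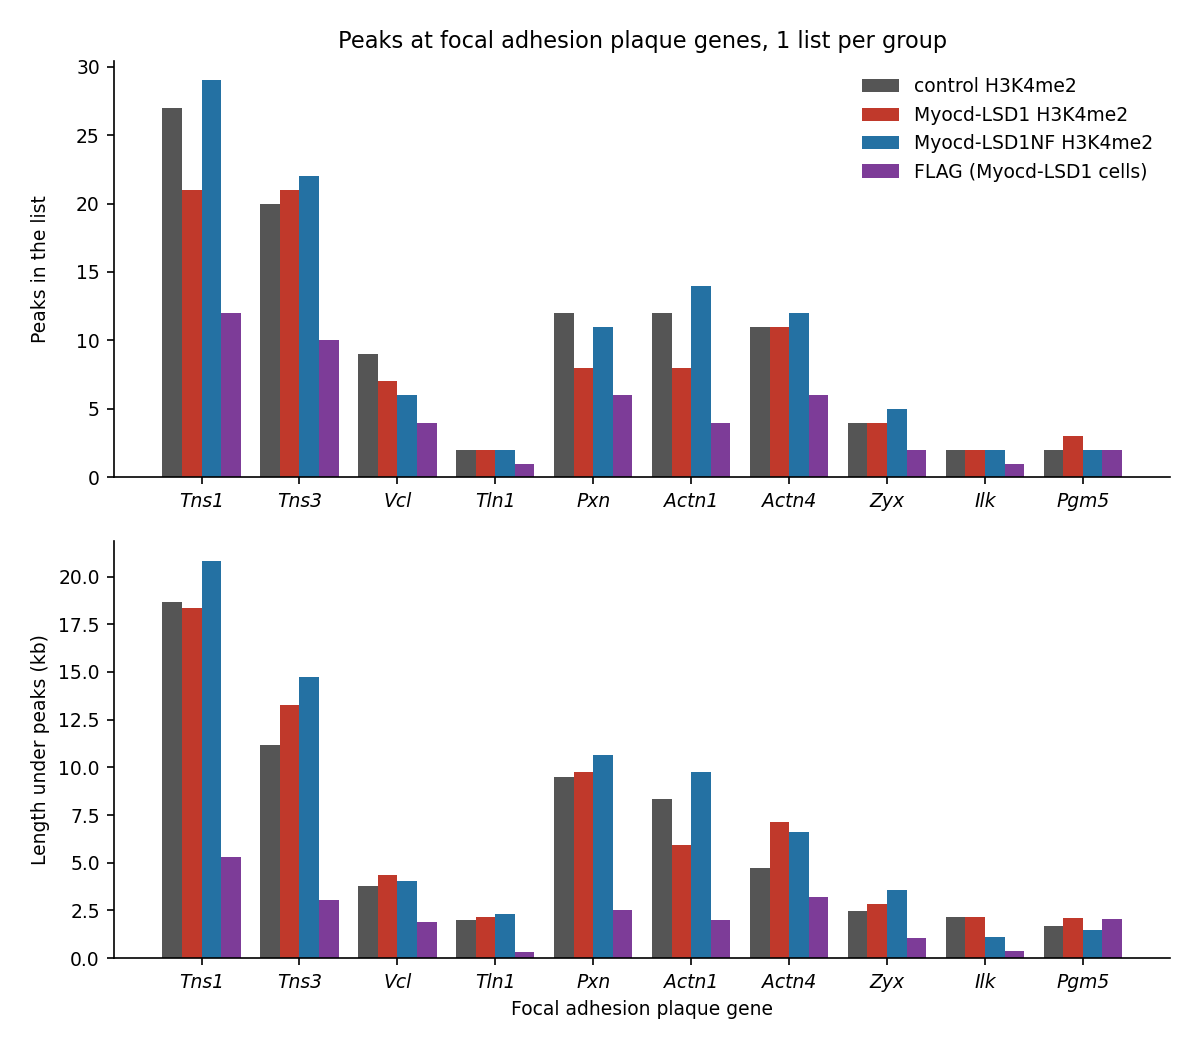
Number of peaks (upper panel) and length under peaks in kb (lower panel) at each plaque gene, with 1 bar per peak list (control, Myocd-LSD1 and Myocd-LSD1NF H3K4me2, and FLAG in Myocd-LSD1 cells) and no error bars, since each group has 1 list. By peak number Tns1 and Tns3 stand highest in all 4 lists, with 21 to 29 and 20 to 22 H3K4me2 peaks, and Actn1 and Pxn have their lowest H3K4me2 peak number, 8, in Myocd-LSD1.

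Peak number and marked length did not always go together. Pxn had fewer peaks in Myocd-LSD1 than in control, with 9757 and 9506 bp under them, and Tns1 had 18338 bp under 21 Myocd-LSD1 peaks and 18663 bp under 27 control peaks. Actn1 differed in both measures, with 8315 bp in control, 5938 bp in Myocd-LSD1 cells and 9750 bp in Myocd-LSD1NF cells. Merging the 3 H3K4me2 lists gave 123 regions at the plaque genes, and 68 of them (55.3%) had a peak in all 3 lists, beside 51.9% of all 56242 merged regions. A peak in control and Myocd-LSD1NF but not in Myocd-LSD1 was present in 13 regions (10.6%, beside 6.40% of all regions). These 13 lay at Tns3 and Actn1 (4 each), Tns1 (3) and Pxn (2). The pattern missing from Myocd-LSD1NF alone had 4 regions (3.25%, beside 5.01%), as did the pattern missing from control alone (3.25%, beside 5.87%). Regions with a peak in control only numbered 9 (7.32%, beside 9.22%), those in Myocd-LSD1 only 9 (7.32%, beside 11.3%), and those in Myocd-LSD1NF only 16 (13.0%, beside 10.3%). Of the 16 Actn1 regions, 8 had no Myocd-LSD1 peak, the largest share among the plaque genes. Without replicates, a peak missing from 1 list cannot be told apart from one just under that list's calling threshold.

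In the replicated comparison, sites lower in Myocd-LSD1 outnumbered higher ones at the plaque genes. The authors' deposited table, which holds only sites with a false discovery rate (FDR) of at most 0.05, had 13 lower and 6 higher sites there. Lower sites were thus 68.4% of the plaque genes' sites, against 41.9% of all sites in the authors' deposited table. From the ratio of FDR to p, about 36352 sites had been tested, of which 14.3% were in the authors' deposited table, 5.98% as lower and 8.28% as higher. Lower sites fell at 4 of the 10 genes (Tns1 with 7, Actn1 with 3, Tns3 with 2 and Pxn with 1), beside 9.28% of the 19345 genes with an H3K4me2 peak in either fusion line. Higher sites fell at 2 of the 10, Tns1 and Tns3 with 3 each, beside 12.9% of those genes. Tns1 and Tns3 therefore had sites in both directions, a pattern 1.19% of those genes showed.

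Genes with more peaks have more places for a site, so the same counts were taken per region. Of the 123 plaque regions, 13 (10.6%) held a lower site, beside 3.84% of all regions, and 6 (4.88%) held a higher one, beside 5.33%. Without Tns1, 6 of 92 regions (6.52%) held a lower site and 3 (3.26%) a higher one. Tns1 itself had a lower site in 7 of 31 regions (22.6%). The differences were moderate in size: the median over the plaque genes' lower sites in the authors' deposited table was -1.73 on the log2 scale, beside -2.09 over all lower sites, and that over the higher sites was 1.66, beside 2.36. Lower sites lay away from start sites, with 1 of 13 within 3 kb of a TSS (7.69%, beside 23.0% of all lower sites), while 3 of the 6 higher sites did (beside 43.7% of all higher sites). A site absent from the authors' deposited table did not pass their threshold, which does not show that the mark was equal there. The 6 genes with no site were Vcl, Tln1, Actn4, Zyx, Ilk and Pgm5.

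**Figure D2:**
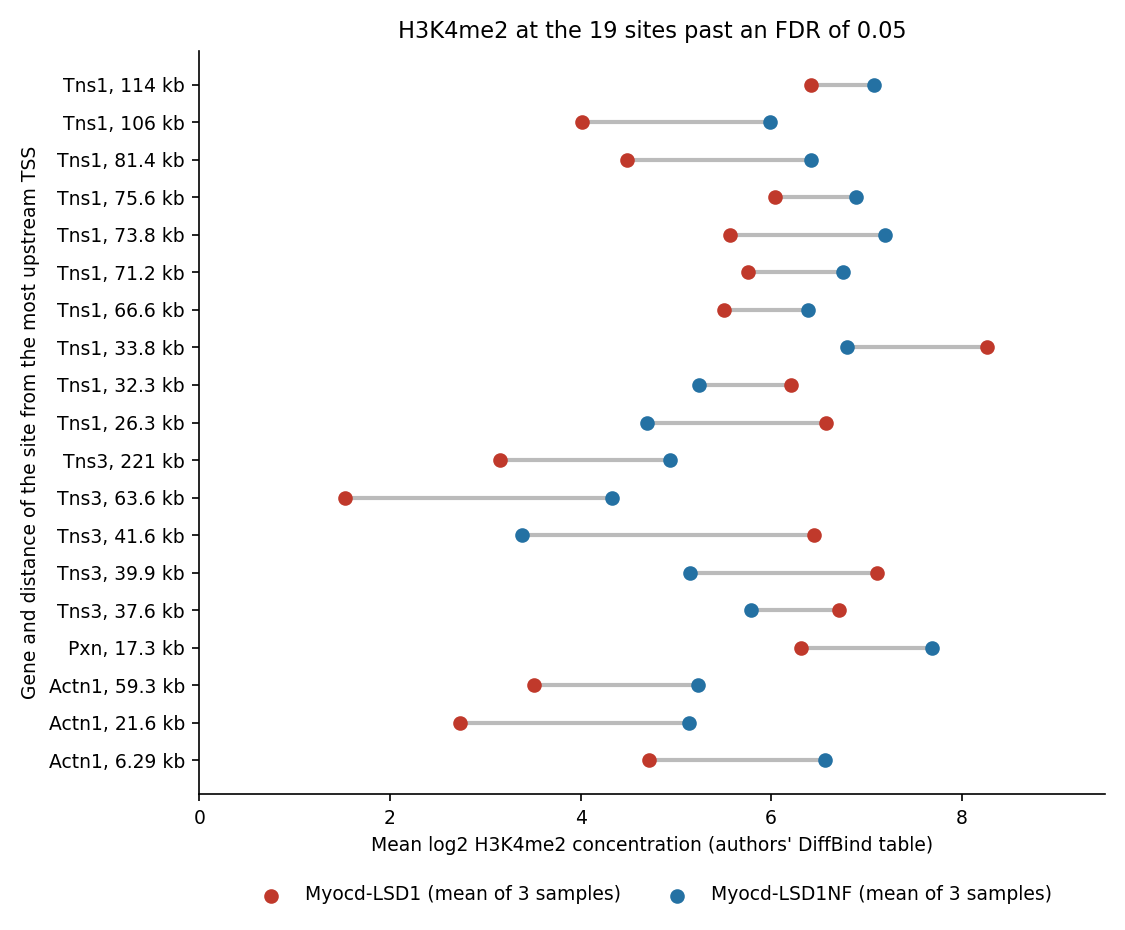
Mean log2 H3K4me2 concentration (horizontal axis) in Myocd-LSD1 and Myocd-LSD1NF at the 19 plaque gene sites of the authors' deposited table, 1 row per site with its distance in kb from the most upstream TSS; the grey line joins the lines' means, and the table gives no error per line. Of the 19 sites, 13 have the Myocd-LSD1 point to the left, by 0.66 to 2.80, and 6 have it to the right, by 0.91 to 3.06.

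Tns1 encodes tensin 1, which caps and cross-links actin and binds integrin tails. Its 7 lower sites were the most of any gene in the authors' deposited table, and Adarb1, Fez2, Psd3, Rbpms and Tp53i11 followed with 5 each. This lead depended on the threshold. At an FDR of at most 0.01, 4 of the Tns1 sites remained and 1 gene had more; among sites that differed by at least 1 on the log2 scale, 3 remained and 18 genes had more. All 10 Tns1 sites lay in introns, as did most of the gene's H3K4me2 peaks in each list. The direction followed position: in the authors' deposited table the 3 higher sites lay 26.3 to 33.8 kb into the gene. The 7 lower sites of the authors' deposited table lay 66.6 to 114 kb into it, with 32.8 kb between the groups.

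The concentrations that follow are the mean log2 normalized read numbers the authors' deposited table gives for each line, without values per sample. In the authors' deposited table, the site at chr9:81294464-81294801 had 4.02 in Myocd-LSD1 against 5.99 in Myocd-LSD1NF, a difference of -1.97 (FDR = 1.87e-05). At chr9:81319091-81320095 the authors' deposited table gave 4.49 and 6.42, a difference of -1.92 (FDR = 2.97e-06). These were the widest gaps of the gene on the lower side, and at both of them control and Myocd-LSD1NF had a called peak and Myocd-LSD1 had none. The peaks at the first were weak, with fold enrichments of 2.21 in control and 2.78 in Myocd-LSD1NF cells. At the second they were 4.51 and 3.21. The site at chr9:81326908-81327491 had 5.57 and 7.19, a difference of -1.61 (FDR = 1.01e-06), again from the authors' deposited table. The other 4 lower Tns1 sites in the authors' deposited table differed by -0.66 to -0.99, with FDR between 0.00577 and 0.0367. At those 4 and at chr9:81326908-81327491 a peak was called in all 3 lines. The mark was thus lower there than in Myocd-LSD1NF but still above the calling threshold in Myocd-LSD1. Control did not enter that comparison. By rising coordinate, the fold enrichments of these peaks were 5.80, 3.97, 4.62, 5.06 and 3.29 in control. They were 6.03, 5.07, 4.01, 5.70 and 5.98 in Myocd-LSD1 cells, and 6.73, 4.73, 5.40, 4.83 and 6.12 in Myocd-LSD1NF cells.

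Nearer the start of Tns1 the difference turned the other way. The site at chr9:81374209-81375115 had 6.57 in Myocd-LSD1 against 4.70 in Myocd-LSD1NF (the authors' deposited table), a difference of 1.87 (FDR = 2.92e-06). Farther in, chr9:81366314-81368004 had 8.26 and 6.80 in the authors' deposited table, a difference of 1.45 (FDR = 0.0186), the highest concentration of any plaque gene site in either line. The third higher site, chr9:81368423-81368905, had 6.21 and 5.24 in the authors' deposited table, a difference of 0.97 (FDR = 0.0314). Control had a peak at the first and second of these and none at the third. The strongest Tns1 peak by score was an intronic one at chr9:81276360-81277636 in control (fold enrichment 7.28, within the top 6.68% of its list), and a different one, chr9:81366156-81368041, in Myocd-LSD1 (7.70, top 7.19%). In Myocd-LSD1NF it stood at chr9:81276371-81277696 (8.79, top 2.42%), where it overlapped the control peak. The Tns1 TSS named in the lists had no H3K4me2 peak on it in any line, and the nearest was a weak Myocd-LSD1 peak 2185 bp into the gene (fold enrichment 2.85).

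**Figure D3:**
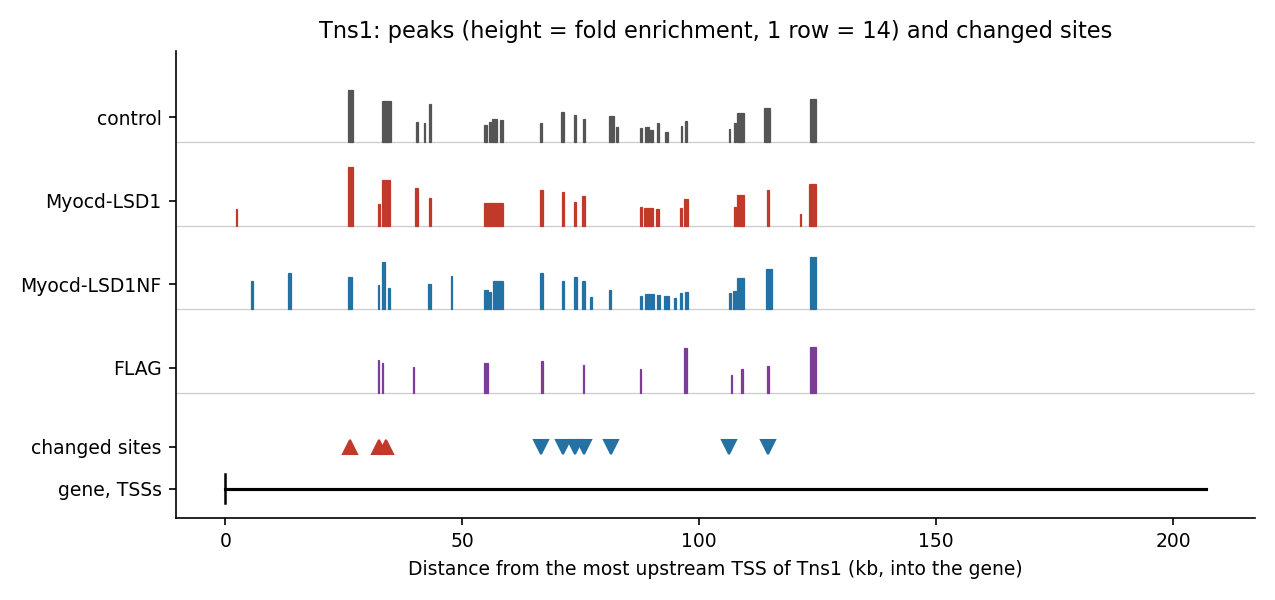
Peaks of each list along Tns1, by distance in kb from its TSS; bar height is fold enrichment over background (1 row of the plot is 14), and triangles mark the sites of the authors' deposited table, red and upward where higher in Myocd-LSD1, blue and downward where lower. The 3 higher sites lie 26.3 to 33.8 kb into the gene and the 7 lower sites 66.6 to 114 kb.

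Tns3 encodes tensin 3, a relative of tensin 1 with the same integrin-binding end. Its 7 annotated TSSs make the gene a set of nested transcripts, and the 3 higher sites clustered at an inner one, that of XM_006251462.3. At chr14:88866020-88866560 the authors' deposited table gave 6.45 in Myocd-LSD1 against 3.39 in Myocd-LSD1NF, a difference of 3.06 (FDR = 5.86e-13), the largest of the plaque genes' sites in either direction. Only the Myocd-LSD1 list had a peak there, with a fold enrichment of 2.95. The neighbouring site chr14:88867534-88868327, 336 bp from that TSS, had 7.11 and 5.15 in the authors' deposited table, a difference of 1.96 (FDR = 1.39e-09). On the other side of the TSS, chr14:88869939-88870619 had 6.71 and 5.79 in the authors' deposited table, a difference of 0.91 (FDR = 0.00819). Both of these sites carried a peak in all 3 lines. At the first, fold enrichments were 6.15 in control, 4.90 in Myocd-LSD1 cells and 5.37 in Myocd-LSD1NF cells. At the second they were 4.05, 3.91 and 7.32 in the same order. By fold enrichment Myocd-LSD1 was thus the lowest at both, although its concentration was above that of Myocd-LSD1NF.

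The lower Tns3 sites lay farther in. At chr14:88843905-88844577, which is 2294 bp from the TSS of NM_001170459.1, the authors' deposited table gave 1.53 in Myocd-LSD1 against 4.33 in Myocd-LSD1NF, a difference of -2.80 (FDR = 0.00819). The Myocd-LSD1 value is low, so this difference rests on few reads in that line. The peak there had a fold enrichment of 5.03 in control and 8.15 in Myocd-LSD1NF and was not called in Myocd-LSD1. Near the end of the gene, chr14:88687109-88687498 in an exon had 3.15 and 4.94 in the authors' deposited table, a difference of -1.79 (FDR = 0.0123), and again Myocd-LSD1 alone lacked the peak. As in Tns1, the higher sites of the authors' deposited table were nearer the most upstream TSS (37.6 to 41.6 kb) than the lower ones (63.6 to 221 kb). The most upstream TSS region had a peak in all 3 lines but none of the sites in the authors' deposited table.

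**Figure D4:**
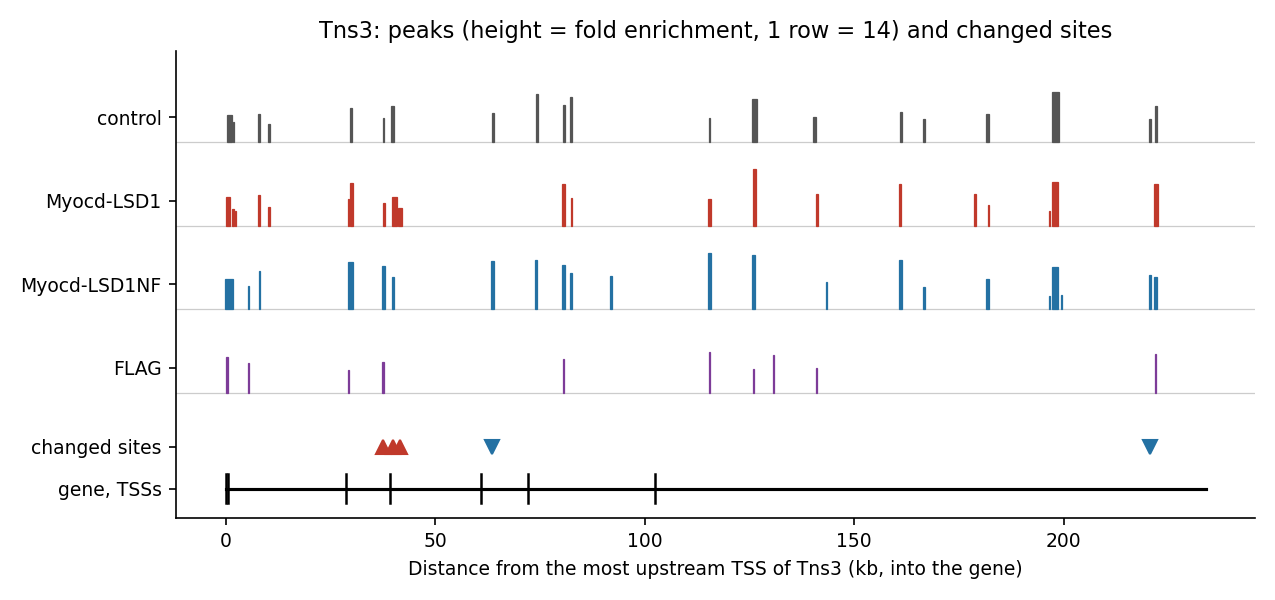
Peaks of each list along Tns3, by distance in kb from its most upstream TSS, with bar height as fold enrichment (1 row is 14), ticks on the gene line for its TSSs, and triangles for the sites of the authors' deposited table (red upward, higher in Myocd-LSD1; blue downward, lower). The 3 higher sites sit together 37.6 to 41.6 kb in, and the lower ones lie 63.6 and 221 kb in.

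The alpha-actinin genes differed from each other. Actn1 encodes the isoform of stress fibres and adhesions, and its 3 sites were all lower and intronic. At chr6:103448520-103449250 the authors' deposited table gave 2.73 in Myocd-LSD1 against 5.14 in Myocd-LSD1NF, a difference of -2.41 (FDR = 0.000458), and only Myocd-LSD1NF had a peak. At chr6:103463835-103464585, 6.29 kb into the gene, it was 4.72 and 6.56, a difference of -1.84 (FDR = 9.18e-06, the authors' deposited table), with a peak in control and Myocd-LSD1NF. Those peaks were weak, with fold enrichments of 2.51 and 2.20. The third, chr6:103410692-103411664, had 3.51 and 5.23 in the authors' deposited table, a difference of -1.73 (FDR = 0.00252), with a peak in all 3 lines. All 3 passed at an FDR of 0.01 and at a difference of 1. The highest Actn1 peak by score in Myocd-LSD1 was another intronic one, chr6:103438411-103440156, with a fold enrichment of 7.44. Just upstream of the Actn1 TSS, a peak was called in every line, with fold enrichments of 4.68 in control, 3.81 in Myocd-LSD1 cells and 4.41 in Myocd-LSD1NF cells.

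Actn4, the alpha-actinin shared by stress fibres and the cell edge, was without a site in the authors' deposited table. Of its 13 regions, 9 had a peak in all 3 lines. Its highest peak by score was intronic at chr1:87110072-87110784 in control, with a fold enrichment of 8.83, and overlapping peaks led in Myocd-LSD1 (10.6) and Myocd-LSD1NF (11.5). The length under Actn4 peaks was 4702 bp in control, 7141 bp in Myocd-LSD1 cells and 6622 bp in Myocd-LSD1NF cells, the reverse of the order of control and Myocd-LSD1 at Actn1. The difference between the genes was not tested, since no values per sample were at hand.

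Pxn encodes paxillin, the LIM-domain adaptor that docks focal adhesion kinase. It had a single site, lower, in an intron at chr12:46827365-46828287. There the authors' deposited table gave 6.31 in Myocd-LSD1 against 7.69 in Myocd-LSD1NF, a difference of -1.38 (FDR = 2.12e-06). All 3 lines had a peak, with fold enrichments of 4.04 in control, 4.46 in Myocd-LSD1 cells and 6.41 in Myocd-LSD1NF cells. Near the Pxn start, what was called as separate peaks at chr12:46841318-46842395 and chr12:46842665-46844167 in control was 1 peak, chr12:46841419-46844355, in Myocd-LSD1 (within the top 4.28% of its list by score). Part of the lower peak number of Pxn in Myocd-LSD1 was therefore such merging.

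Vcl encodes vinculin, the linker that reinforces adhesions under tension. Its TSS peak was the strongest start-site peak of the plaque genes in control by score, chr15:3544696-3545244, with a fold enrichment of 11.0 and a place in the top 1.17% of the list. The overlapping peaks had fold enrichments of 8.78 in Myocd-LSD1 (top 7.62%) and 10.2 in Myocd-LSD1NF (top 3.80%). No Vcl site passed in the authors' deposited table. Of its 11 regions, 5 had a peak in all 3 lines and 3 had one in control only, the latter with fold enrichments of at most 4.17.

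**Figure D5:**
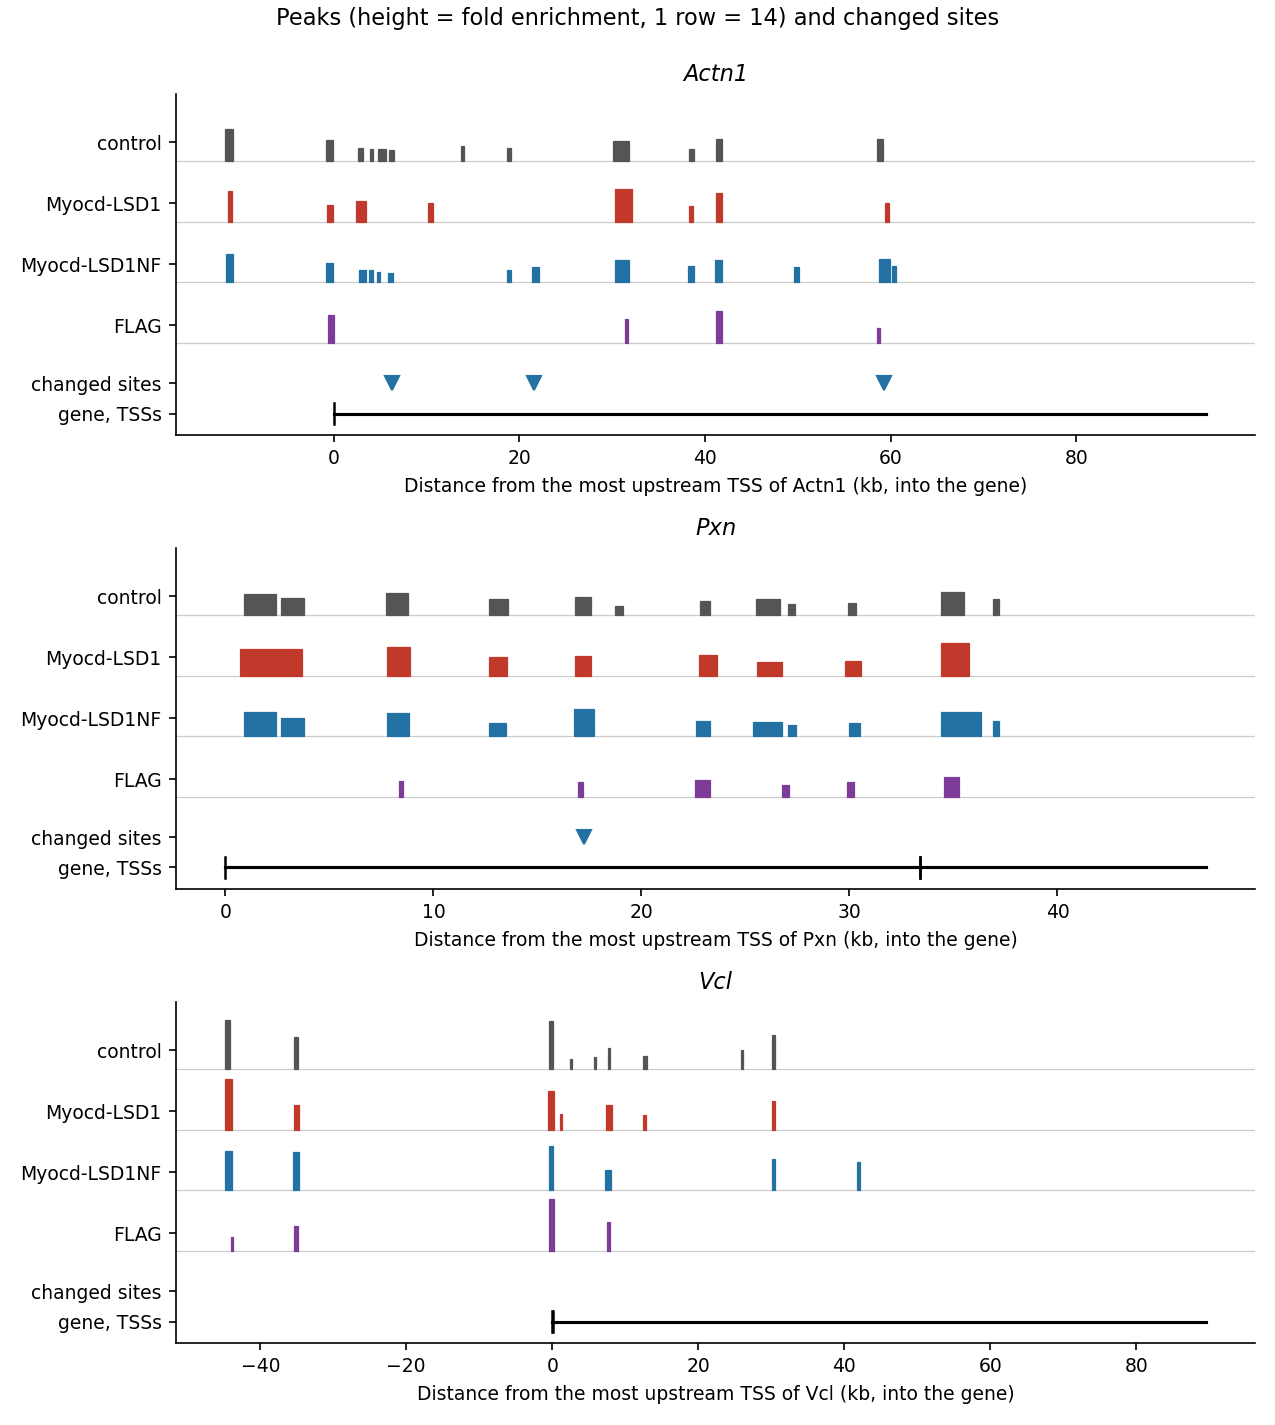
Peaks of each list along Actn1, Pxn and Vcl, by distance in kb from the most upstream TSS of each gene, with bar height as fold enrichment (1 row is 14) and triangles for the sites of the authors' deposited table. Actn1 has 3 lower sites (blue, downward) and Pxn 1, and Vcl has none; the tallest FLAG bar of Vcl, at its TSS, is 12.0.

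The remaining plaque genes had few peaks, and each had at least 1 near a start in every line. Ilk, which encodes the pseudokinase that joins integrins to parvin and PINCH, had its highest peak on the TSS in every line, with fold enrichments of 7.30 in control, 7.86 in Myocd-LSD1 cells and 8.92 in Myocd-LSD1NF cells. Each of these was within the top 6.84% of its list. Pgm5, a catalytically inactive relative of phosphoglucomutase found at muscle adhesions, had a TSS peak of 10.2 in control, 7.57 in Myocd-LSD1 cells and 9.13 in Myocd-LSD1NF cells. By score these stood in the top 14.8%, 53.4% and 16.7% of their lists, so that the Myocd-LSD1 peak ranked lowest. Tln1, the integrin activator, had 2 regions, both with a peak in all 3 lines, and its highest peak lay 1537 to 1547 bp from a TSS, with fold enrichments of 3.69, 3.70 and 3.50. Zyx, which encodes the LIM protein that repairs stress fibres, had TSS peaks of 3.50, 3.69 and 3.57. At these 4 genes no site passed in the authors' deposited table.

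Promoter peaks were present at most plaque genes in every line. In control 9 of 10 had one (all but Tns1; beside 65.8% of all genes), in Myocd-LSD1 10 (64.0%) and in Myocd-LSD1NF 9 (all but Tns1; 61.7%). With promoters taken as within 1 kb, each line had 8. A peak lay on a TSS itself at 6 genes, Tns3, Vcl, Actn4, Zyx, Ilk and Pgm5, in each of the 3 lines, beside 46.1%, 47.3% and 45.4% of all genes in the same order of lists.

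FLAG was profiled to map the tagged fusion, and the 10 plaque genes each had at least 1 FLAG peak, beside 70.7% of all genes. No FLAG profile of untagged cells was analysed here. A FLAG promoter peak was present at 7 genes (beside 44.2%), the exceptions being Tns1, Tln1 and Pgm5, and a FLAG peak on a TSS at 5, Vcl, Actn1, Actn4, Zyx and Ilk (beside 26.9%). These counts per gene do not take into account that the plaque genes had more H3K4me2 peaks than most genes. Per H3K4me2 region, the share with a FLAG peak was 36.6%, beside 33.7% of all regions. Tns1 had 12 FLAG peaks, Tns3 10, Actn4 and Pxn 6 each, Vcl and Actn1 4 each, Zyx and Pgm5 2 each, and Tln1 and Ilk 1 each. The highest by score was on the Vcl TSS, chr15:3544503-3545153, with a fold enrichment of 12.0; it ranked 422 of 26480, in the top 1.59%. Zyx and Ilk had fold enrichments of 8.04 and 8.09 at the TSS, Actn1 6.49 and Actn4 6.35.

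Of the 5 genes with a FLAG peak on a TSS, Vcl and Zyx are shown by their promoter windows, since these held the matches described next; the windows of Actn1 and Ilk held none. RefSeq sequences of the later build GRCr8 were used, from 250 bases before to 50 after the TSS, and their coordinates are not those of the rn6 peaks. Of the 10 plaque genes, 8 had a window in the table, with 10 windows in all (Tns1 and Actn4 were not matched). The windows were searched on both strands for the CArG box bound by serum response factor, for a CArG box with 1 of its 6 central bases G or C, and for CATTCC, the core of the site bound by TEAD factors. Capitals mark matches, and in Vcl also the first bases of the window, whose letters match a CArG box from its second base on. The base before the window was not seen, so whether a whole box stands there is unknown.
Vcl, chr15:3404751-3405050, minus strand: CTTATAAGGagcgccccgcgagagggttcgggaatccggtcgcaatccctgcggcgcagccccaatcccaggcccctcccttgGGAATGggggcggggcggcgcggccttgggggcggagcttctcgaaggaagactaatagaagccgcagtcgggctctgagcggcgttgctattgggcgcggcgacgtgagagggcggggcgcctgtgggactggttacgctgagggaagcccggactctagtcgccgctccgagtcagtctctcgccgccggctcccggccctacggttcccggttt
Zyx, first window, chr4:72203750-72204049, plus strand: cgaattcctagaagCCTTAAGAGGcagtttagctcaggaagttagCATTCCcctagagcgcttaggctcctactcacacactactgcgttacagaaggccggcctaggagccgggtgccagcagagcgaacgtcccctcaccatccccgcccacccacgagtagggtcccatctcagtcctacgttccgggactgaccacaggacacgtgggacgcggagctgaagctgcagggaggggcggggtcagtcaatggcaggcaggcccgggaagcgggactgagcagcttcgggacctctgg
Zyx, second window, chr4:72204185-72204484, plus strand: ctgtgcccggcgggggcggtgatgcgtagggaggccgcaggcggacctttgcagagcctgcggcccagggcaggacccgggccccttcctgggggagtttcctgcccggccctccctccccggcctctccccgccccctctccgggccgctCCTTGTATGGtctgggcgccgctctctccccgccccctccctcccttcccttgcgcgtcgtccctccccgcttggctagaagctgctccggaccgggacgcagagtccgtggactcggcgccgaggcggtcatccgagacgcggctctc

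A whole CArG box was in none of the 10 windows and in 1.64% of the 33469 windows in the table. The form with 1 substituted central base was in both Zyx windows, as CCTTAAGAGG starting at -236 and CCTTGTATGG at -99 from the TSS, and in 8.10% of all windows. CATTCC was in the first Zyx window at -205 and, on the other strand as GGAATG, in Vcl at -167, and in 14.2% of all windows. The Vcl window opens with CTTATAAGG at -250, and 8 windows in the table (0.0239%) opened with letters that match a CArG box from its second base on. That share counts a single fixed position, so it cannot be set beside the shares above, which count matches anywhere in a window. These are matches of letters in a window, not measured binding sites.

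FLAG peaks away from starts were strongest in introns. The second highest by score lay in Tns1 at chr9:81276414-81277658 (fold enrichment 7.61), on the H3K4me2 peak that led in control and Myocd-LSD1NF. Others lay in Actn1 at chr6:103428670-103429361 (7.36), on an H3K4me2 peak of all 3 lines, in Actn4 at chr1:87109999-87110735 (7.31) and in Pgm5 at chr1:242676484-242678311 (7.78). That Pgm5 peak, 1828 bp wide, overlapped an H3K4me2 peak in every line, but not the same one. Control and Myocd-LSD1 shared a region at chr1:242676517-242677258, with fold enrichments of 4.09 and 5.88. The Myocd-LSD1NF peak was a separate one at chr1:242677796-242678178, with a fold enrichment of 3.43. It was close to the calling threshold, ranking 42596 of 42727 by score.

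Most FLAG peaks of the plaque genes lay on H3K4me2 peaks, 43 of 48 on a peak of any line (89.6%, beside 73.5% of all FLAG peaks). By line, 37 (77.1%) lay on a control peak, 40 (83.3%) on a Myocd-LSD1 peak and 42 (87.5%) on a Myocd-LSD1NF peak, beside 65.1%, 69.0% and 67.4%. The 5 without one were single peaks named for Tns1, Tns3, Actn4, Pgm5 and Tln1, and the Tln1 peak lay in an exon of its neighbour Gba2, upstream of the Tln1 TSS. In the other direction, 45 of the 123 H3K4me2 regions (36.6%) held a FLAG peak, beside 33.7% of all regions, and the share was highest among genes with over 5 regions at Pxn, 7 of 11.

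FLAG peaks were on 7 of the 19 sites in the authors' deposited table, 4 of the 13 lower ones (30.8%, beside 22.7% of all lower sites) and 3 of the 6 higher ones (beside 32.5% of all higher sites). In Tns1, 3 lower and 2 higher sites carried one; the others were a higher Tns3 site and the lower Pxn site. None of the 3 Actn1 sites in the authors' deposited table had a FLAG peak on it. A FLAG peak thus lay on sites of both directions. Within 1 kb, 9 of the 19 sites had a FLAG peak, beside 31.6% of all sites.

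Other genes of the adhesion machinery, a list of 56 of which 53 had an H3K4me2 peak in either fusion line, also had sites in both directions. In the authors' deposited table, 10 of the 53 (18.9%) had a lower site, 13 (24.5%) a higher one, 3 both and 33 none, beside 9.28% and 12.9% of all such genes. They held 13 lower and 17 higher sites, whereas the plaque genes held 13 and 6. The other adhesion genes also had a higher median peak number, 4 in the Myocd-LSD1NF list beside 2 over all genes with a peak. Their shares were not taken per region. The widest difference was at the TSS of Svil, which encodes supervillin, a membrane-bound actin and myosin II binder, with 6.12 in Myocd-LSD1 against 1.97 in Myocd-LSD1NF (difference 4.15, FDR = 7.37e-13, the authors' deposited table). Fermt1 (kindlin 1) and Tln2 (talin 2), integrin activators, were higher at their TSSs in the authors' deposited table, while Tln1 had no site. Fermt1 had 5.46 in Myocd-LSD1 against 1.80 in Myocd-LSD1NF (difference 3.65, FDR = 1.12e-06, the authors' deposited table). Tln2 had 5.17 against 1.58 (difference 3.59, FDR = 1.71e-05, the authors' deposited table). At Svil, Fermt1 and Tln2 the Myocd-LSD1NF values were low, so these differences rest on few reads in that line. Pak1, a kinase downstream of Rac, Fhl2, a LIM protein, and Arhgef7, an exchange factor for Rac, were higher in the authors' deposited table by 2.74 (FDR = 0.0467), 2.52 (FDR = 2.2e-06) and 2.14 (FDR = 0.000502).

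The lower sites of the authors' deposited table included those of Parva, the parvin partner of Ilk, at -2.29 (FDR = 0.0174), and Nedd9, an adaptor of focal adhesion kinase, at -2.16 (FDR = 2.21e-05). Fhl2 also had a site in the opposite direction in the authors' deposited table. Arhgef6, another Rac exchange factor, had -0.08 in Myocd-LSD1, the lowest value that column of the authors' deposited table takes, and 3.94 in Myocd-LSD1NF (FDR = 0.00379), so its difference of -4.02 rests on almost no reads in Myocd-LSD1. A FLAG peak was named for 45 of the 54 listed genes found in the lists, and a FLAG promoter peak for 34, beside 70.7% and 44.2% of all genes. These shares do not take peak number into account.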

How the data were processed

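CUT&Tag peak lists and a table of differences were used from 13 samples in 4 groups. Per the submitters' processing notes, the tools were Bowtie2, MACS2, deepTools, ChIPseeker and DiffBind, on the rat build rn6. Their versions, settings and scaling, and the handling of duplicates and Tn5 offsets, are not given in the sources at hand. The authors deposited 1 peak list per group with a score, a fold enrichment, and a -log10 p-value and -log10 q-value per peak, per the file headers. The deposited score equals 10 times the -log10 q-value. Peak names in each list carry 1 alignment name, which in the H3K4me2 lists ends in the number 1. A list may therefore rest on 1 sample of its group; whether replicates were pooled is not stated. The authors' deposited table gives 5183 sites with a mean log2 concentration in each fusion line, the log2 difference between them, an FDR and a p-value, per the file headers; the difference is Myocd-LSD1 minus Myocd-LSD1NF within 0.01, as the values show. The lowest concentrations, -0.08 and -0.11, stand for sites with almost no reads. Depth per sample is unknown, so counting intervals were not computed.

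Starts were turned to 1-based counting. A site belonged to a gene where it overlapped by at least 1 bp a peak the authors annotated to that gene. H3K4me2 peaks of the 3 lists were merged into regions where they overlapped. A promoter was within 3 kb of a TSS. No test was made here: FDR values are the authors', adjusted over all their sites, and counts stand beside the same counts over all genes, regions or peaks. The rule for naming took every site of a plaque gene, and up to 10 other adhesion genes by size of difference. It also took the highest-scoring peak per gene and list, but not all of these are named, as at Tns3. For Zyx the TSS peak is given in every line. Further peaks, and the genes next to Tns1 by site number, were chosen after their values were seen. Some genes that this rule takes are not reported here. The plaque genes and the lists of other adhesion genes and markers were chosen with earlier results of these data known. The overlap code was tested on simulated lists. Python 3.11.15, numpy 2.4.6, pandas 2.3.3 and matplotlib 3.10.9 were used. Alternatives changed the FDR, the smallest difference, the assignment of sites, the overlap, the promoter distance and the peak threshold.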

Additional observations from a re-analysis of the deposited data

How the results depend on the processing

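Of 32 alternative values, 29 stayed within 1.5 times of the reported one. The other 3 were peak numbers in the 50% of each list with the strongest q-values: 46 in control, 49 in Myocd-LSD1 cells and 57 in Myocd-LSD1NF cells, in place of 101, 87 and 105, so that the order of control and Myocd-LSD1 turned. Keeping 50% of a list lowers most peak numbers by about that share, so these 3 could hardly stay within the limit. The counts of 13 lower and 6 higher sites became 9 and 4 at an FDR of 0.01 or at a difference of 1, and stayed 13 and 6 with sites given to the nearest TSS or with an overlap of 50%. The genes with a lower or a higher site numbered 4 and 2 under each of these 4 alternatives. Assignment to the nearest TSS could hardly change these counts, since the TSSs were those to which the peaks had been annotated. No paired analysis was possible because the lists and the authors' deposited table hold no values per sample, and for the same reason no replicate could be left out. Unknown depth limits every statement that a peak was absent from a list.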

Other observations

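The genes whose peaks and sites most resembled those of Tns1 included Smad6, which encodes an inhibitory SMAD, and Nav2, a neuron navigator gene. Likeness was the Euclidean distance over the log2 length under peaks in the 4 lists and the log2 numbers of lower and higher sites, and came to 1.36 and 1.42. Smad6 and Nav2 each had 3 lower and 2 higher sites in the authors' deposited table. Some peaks inside the spans of plaque genes carried the names of other genes and were not counted: in Tns1 4 in control, 5 in Myocd-LSD1 cells and 4 in Myocd-LSD1NF cells (LOC108351953 and Rufy4), in Pgm5 3, 1 and 4 (Tmem252), in Tln1 2, 2 and 1 (Creb3 and Tpm2), in Vcl 1, 0 and 2 (Ap3m1) and in Actn4 0, 1 and 0 (LOC102550499). Tln1 had 2 counted peaks of its own in each of these lists.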
